A study of Mus musculus with 2 samples.

Results

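The aminoacyl-tRNA synthetases were described in KLS cells, the lineage-negative, c-Kit-positive, Sca-1-positive fraction of bone marrow that holds haematopoietic stem and early progenitor cells. The list held 36 genes, 20 for cytosolic and 16 for mitochondrial enzymes, chosen by name, out of 18193 genes on the array. The choice was made with earlier results of these data known. A gene was taken in when the platform annotation assigned a probe set to it alone, under its current or an older symbol. This gave 72 probe sets for 35 of the 36 genes. Dars, the cytosolic aspartyl enzyme, had no probe set of its own in the annotation used and is not analysed here.

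The groups were TIF1γ Δ/Δ, KLS cells of mice with conditional inactivation of the TIF1γ gene (Trim33), and wild type, KLS cells of wild type mice. The gene deletion was studied for its effect on haematopoietic stem cells. The sources used here name no Cre driver, strain, age or number of mice behind each sample. Each group was 1 Affymetrix array, hybridised with cRNA that had been amplified in repeated cycles from a small amount of total RNA. With 1 array a group there was no replicate check of any difference, so errors between samples and p-values cannot be given. In bulk RNA of this kind, fewer cells of a type and less RNA per cell cannot be told apart.

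Aminoacyl-tRNA synthetases join each amino acid to its matching tRNA and so supply the ribosome with its substrates. Cytosolic and mitochondrial ribosomes use separate sets, and the mitochondrial enzymes are encoded in the nucleus and imported. Gars and Kars are exceptions, since each gene encodes both the cytosolic and the mitochondrial form. The enzymes fall into class I and class II by the fold of their catalytic domain, and several of the cytosolic ones are held together in the multisynthetase complex by scaffold proteins. When uncharged tRNA accumulates, the kinase GCN2 phosphorylates eIF2, translation of the transcription factor ATF4 rises, and ATF4 induces amino acid transporters, amino acid synthesis enzymes and many cytosolic synthetases.

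Values are MAS5 signals in array units. A difference is the log2 signal on the TIF1γ Δ/Δ array minus that on the wild type array, after subtraction of the median difference of all probe sets measured on both arrays. A probe set counted as measured on an array when it reached that array's median signal, which was 11.7 for TIF1γ Δ/Δ and 14.4 for wild type. Each gene is represented by the probe set whose log2 signal, averaged over both arrays, was highest. The scatter between probe sets of the same gene gives a scale for reading the differences. As an SD of log2 differences it came to 0.45 over 4534 genes and to 0.40 over the 18 synthetase genes with more than 1 measured probe set, and it measures probe sets, not mice.

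The targeted gene, Trim33, had the lower signal in TIF1γ Δ/Δ cells. The probe set 1426954_at of Trim33 gave 172 in TIF1γ Δ/Δ cells and 379 in wild type cells, a log2 difference of -1.12. The sources used here do not say whether these probe sets read the deleted exons. Kit, which defines the sort, gave 495 in TIF1γ Δ/Δ cells and 384 in wild type cells (log2 0.39), and its other probe set 73.5 and 33.9 (log2 1.14). Ly6a, which encodes Sca-1, had no probe set of its own in the annotation used. Of 6 lineage genes with a probe set, Cd3e, Cd4 and Itgam lay under the floor on both arrays, and Cd8a, at 9.14 in TIF1γ Δ/Δ cells and 18.8 in wild type cells, did so in TIF1γ Δ/Δ cells. Il7r gave 77.5 and 99.0 (log2 -0.33), and Ptprc, which most blood cells express, gave 1618 and 1535 (log2 0.10). Of the marker lists, that of mature neutrophils and macrophages differed most between the arrays. Among 21 measured markers, 19 had signals in TIF1γ Δ/Δ cells at least 2-fold below those in wild type cells, and 9 of the 21 reached the TIF1γ Δ/Δ floor, against all 21 the wild type floor. Their summed signal was 991 in TIF1γ Δ/Δ cells and 39701 in wild type cells, and S100a9, Lcn2 and Ltf were among those below the TIF1γ Δ/Δ floor. Erythroid markers had a summed signal of 3731 in TIF1γ Δ/Δ cells and 8111 in wild type cells, and 11 of 15 were at least 2-fold lower. Of 7 measured plasma cell and B cell markers, 2 were above 0 and 2 were at least 2-fold lower, at a median of -0.81. The 2 lower were Ms4a1, at least 10.7-fold lower and under the TIF1γ Δ/Δ floor, and Vpreb1 (log2 -2.62). Jchain, which lies outside the naming rule and was among those above 0, gave 4440 in TIF1γ Δ/Δ cells and 4346 in wild type cells. Over all genes with a value, 6.16% were at least 2-fold lower. The markers of these lists moved with genotype in the same arrays as the synthetases, and their part in the synthetase differences was not tested.

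Cytosolic synthetases had higher signals in TIF1γ Δ/Δ cells almost throughout, by modest amounts. Of the 19 with a value, 17 had a positive difference and 8 were at least 1.5-fold higher, while none was at least 1.5-fold lower. Their median difference was 0.52 on the log2 scale, against 0.017 for all 11439 genes with a value. Over all genes, 13.8% passed 1.5-fold in the higher direction, 15.7% passed it in the lower direction and 51.3% were above 0. The 8 are 42.1% of the cytosolic enzymes. At 2-fold, a single synthetase gene, Eprs, was higher and none lower, beside 2.60% of all genes higher and 6.16% lower. This count is small and ran from 0 to 4 over other floors, scalings, offsets and probe set rules.

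Mitochondrial synthetases lay closer to the whole array. Of 16 with a value, 10 had a positive difference and 3 were at least 1.5-fold higher, which is 18.8% beside the 13.8% of all genes. None was at least 1.5-fold lower. Their median difference was 0.11, so the cytosolic median stood 0.40 above it. With the floor at the 65th percentile of each array the mitochondrial median was -0.011 over fewer genes, so its direction is not settled, while the cytosolic median stayed above 0.4 under all 10 alternatives tried. Both medians are descriptions of these 2 arrays.

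**Figure D1:**
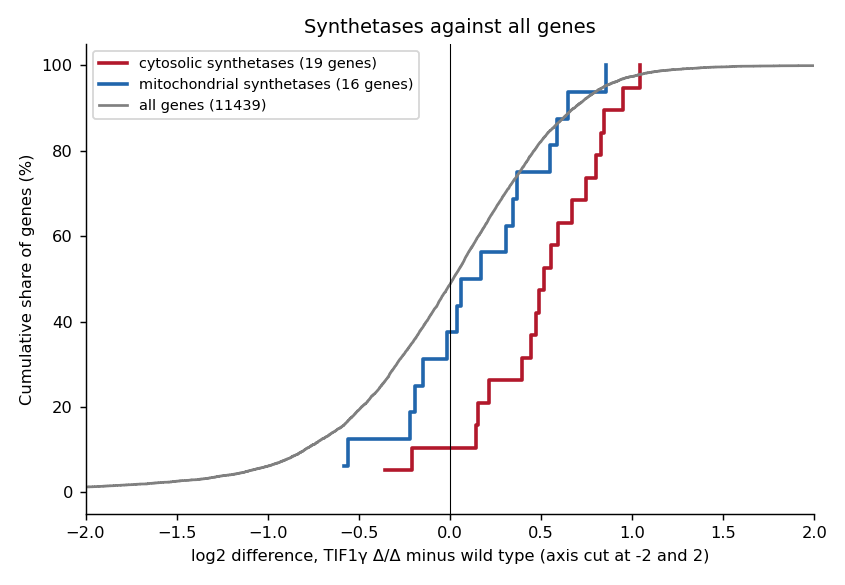
Cumulative share of genes (vertical axis, in percent) by log2 difference, TIF1γ Δ/Δ minus wild type (horizontal axis), for 19 cytosolic synthetases, 16 mitochondrial synthetases and 11439 genes in all. The cytosolic curve (median 0.52) lies to the right of the others over most of its range and ends at 1.04, a difference that some of all genes exceed, and the mitochondrial curve has a median of 0.11.

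With the probe set rule used here, the largest difference among the cytosolic enzymes was that of Eprs, the bifunctional glutamyl-prolyl synthetase. That rank changes with the settings. With the mean of all probe sets Eprs stood at 0.56 and Iars at 1.19, without shared probe sets Iars was at 1.57 and Wars at 1.21, and with quantile scaling Cars was at 1.01 and Eprs at 0.97. Its probe set 1452157_at gave 556 in TIF1γ Δ/Δ cells and 274 in wild type cells (log2 1.04, 2.06-fold). Of its 4 measured probe sets 3 were higher, and 1430370_at differed by -0.37 at a signal of 16.3 in TIF1γ Δ/Δ cells and 21.4 in wild type cells, close to the floor. Wars, the tryptophanyl enzyme, known in human cells as an interferon-inducible gene, gave 209 in TIF1γ Δ/Δ cells and 110.0 in wild type cells (log2 0.95). All 4 of its probe sets were higher, with differences between 0.36 and 1.21.

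Tars, Mars, Iars and Cars came next. Tars, the threonyl enzyme, gave 443 in TIF1γ Δ/Δ cells and 251 in wild type cells (log2 0.84). Mars, the methionyl enzyme that also charges the initiator tRNA, gave 669 and 383 (log2 0.83). Iars, the isoleucyl enzyme, gave 1035 and 604 (log2 0.80), and its other probe set, 1452154_at, gave 126 and 43.1 (log2 1.57). Tars and Mars each rest on 1 probe set, whereas both probe sets of Iars were higher. Cars, the cysteinyl enzyme, gave 23.8 in TIF1γ Δ/Δ cells and 11.98 in wild type cells, where it lay under the floor, so it was at least 1.67-fold higher.

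Lars, the leucyl enzyme, known in human cells also as a leucine sensor upstream of mTORC1, gave 660 in TIF1γ Δ/Δ cells and 422 in wild type cells (log2 0.67). Gars, the glycyl enzyme, gave 835 and 563 (log2 0.59, 1.51-fold). Both have a single probe set. Gars stood just inside the 1.5-fold limit and Nars, the asparaginyl enzyme, just outside it, with 1935 in TIF1γ Δ/Δ cells and 1340.1 in wild type cells (log2 0.55, 1.47-fold). The limit therefore separates neighbours that differ by far less than the scatter between probe sets.

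A middle group of cytosolic genes was higher by less than 1.5-fold. Rars, the arginyl enzyme, had a difference of 0.52, Farsb of 0.49, the valyl enzyme Vars of 0.47, Kars of 0.44 and the alanyl enzyme Aars of 0.39. Kars and Aars stood below the SD of 0.45 between probe sets over all genes, and Rars, Farsb and Vars little above it. Farsb encodes the regulatory subunit of the phenylalanyl enzyme and Farsa its catalytic subunit, and both subunits are needed for activity. Farsb gave 1675 in TIF1γ Δ/Δ cells and 1213 in wild type cells, and Farsa 198 and 181 (log2 0.15). Fainter probe sets of Farsa, 1445003_at (32.9 and 13.2) and 1440063_at (19.8 and 10.3), lay under the wild type floor. They were at least 2.32-fold and 1.40-fold higher. All 4 measured probe sets of Farsb were above 0, from 0.0095 to 0.49, so the subunits' ranges over probe sets measured on both arrays overlap. Hars, the histidyl enzyme, had a difference of 0.21 and Yars, the tyrosyl enzyme, of 0.14, both below the probe set scatter, although the other probe set of Hars, 1417024_at, stood at 0.71.

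The cytosolic enzymes below 0 were Qars and Sars. Qars, the glutaminyl enzyme, gave 1284 in TIF1γ Δ/Δ cells and 1509 in wild type cells (log2 -0.21), and its 3 measured probe sets ran from -0.21 to 0.040. Sars, the seryl enzyme, gave 437 and 568 (log2 -0.36), and its second probe set stood at -0.019. Neither reached 1.5-fold, and neither passed the scatter between probe sets. All 35 cytosolic probe sets measured on both arrays together gave 30 positive and 5 negative differences, and 14 reached 1.5-fold, all of them higher. Probe sets of a gene share their target and are not independent.

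**Figure D2:**
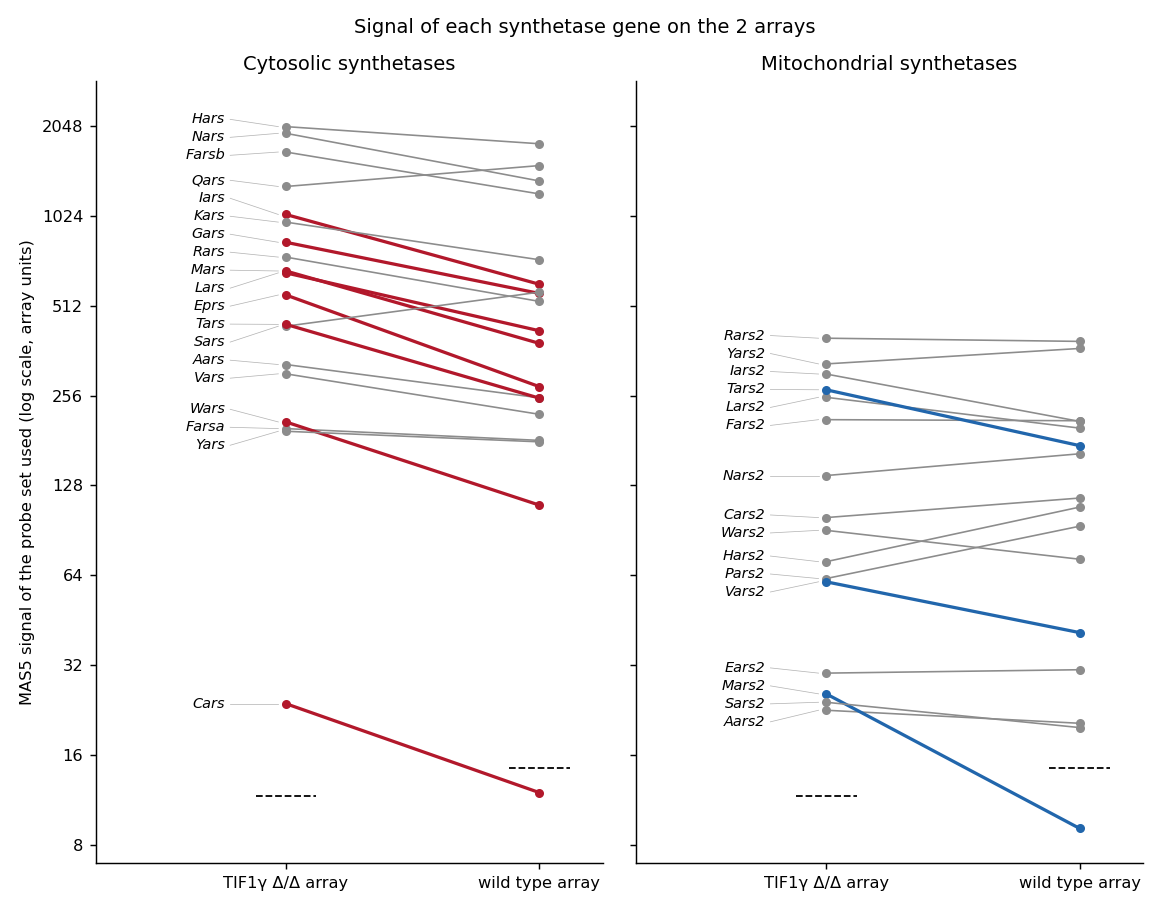
MAS5 signal (vertical axis, log scale, array units) of each synthetase gene on the TIF1γ Δ/Δ array (left of each panel) and the wild type array (right), with 1 line a gene, coloured where the difference is at least 1.5-fold. Dashed marks are the floors of 11.7 and 14.4, and Cars and Mars2 lie below the wild type floor.

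The cytosolic synthetases were also set against genes of higher signal alone, a comparison added after the values were seen. Among 5684 genes with a signal of 100 or more on both arrays, 14.8% passed 1.5-fold in the higher direction, 7.09% passed it in the lower direction and 58.4% were above 0, with a median of 0.10. Of the 18 cytosolic synthetases in that range, 7 were at least 1.5-fold higher and 16 above 0, with a median of 0.50. Of the 7 mitochondrial synthetases in that range, 1 was at least 1.5-fold higher and 5 were above 0, with a median of 0.059.

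**Figure D3:**
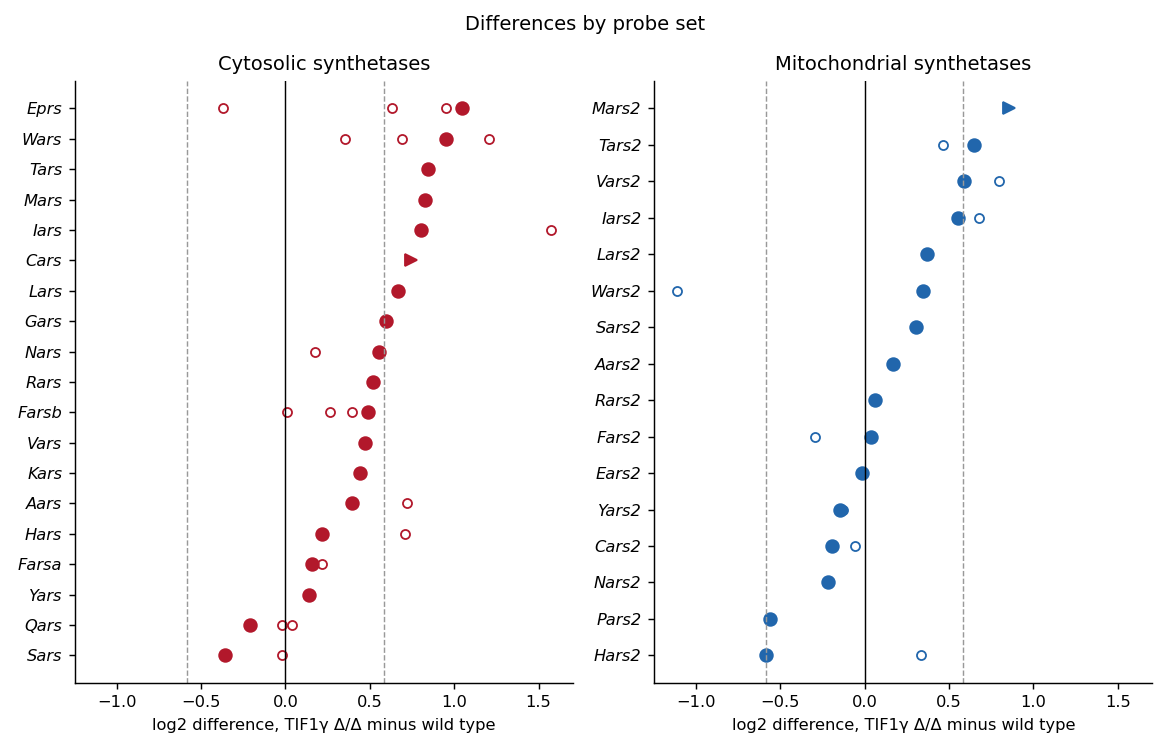
Log2 difference, TIF1γ Δ/Δ minus wild type (horizontal axis), of each measured probe set of the cytosolic and mitochondrial synthetases. Filled circles are the probe sets that represent the gene, open circles the others, arrowheads lower bounds for Cars and Mars2, and dashed lines 1.5-fold; 30 of the 35 cytosolic and 13 of the 23 mitochondrial probe sets measured on both arrays lie above 0.

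Cytosolic enzymes of both classes and of both states of assembly had medians above 0. Class I enzymes had a median of 0.67 with 5 of 9 at least 1.5-fold higher, and class II enzymes a median of 0.44 with 2 of 9, Eprs being left out because its glutamyl and prolyl domains belong to different classes. Enzymes of the multisynthetase complex had a median of 0.67, with 4 of 7 at least 1.5-fold higher, namely Eprs, Mars, Iars and Lars, while Qars was the member below 0. The 12 enzymes outside the complex had a median of 0.48, with 4 at least 1.5-fold higher, while Sars was the member below 0. Qars is of class I and Sars of class II. Those counts are 55.6%, 22.2%, 57.1% and 33.3% in the order given, beside 13.8% of all genes. The medians come from 1 array a group and were not tested. The scaffold genes of the complex stood below 0, but by less than the scatter between probe sets. For Aimp1 and Eef1e1 the value rests on 1 measured probe set each. Aimp1, Aimp2 and Eef1e1, all named outside the rule for named genes, had differences of -0.40, -0.27 and -0.30, with signals of 821, 832 and 656 in TIF1γ Δ/Δ cells and of 1099, 1017 and 824 in wild type cells.

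The proofreading factors of the same list went both ways. Prorsd1, whose product is related to the bacterial editing domain for prolyl-tRNA, gave 477 in TIF1γ Δ/Δ cells and 859 in wild type cells (log2 -0.83). Aarsd1, which deacylates mischarged tRNA for alanine, gave 279.5 and 166 (log2 0.78). Of the 6 genes in the list 2 were above 0 and the median was -0.29.

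The promoters of cytosolic synthetases are shown because ATF4 acts on such genes through a composite C/EBP-ATF response element. The core of that element, TGATGNAA, was searched on both strands in RefSeq windows (GRCm38.p6) from 250 bases before to 50 bases after each annotated start. Of 17492 protein-coding genes with a window, 4.13% held a match. Windows were at hand for 13 cytosolic synthetases, and 5 of them held a match, namely Aars, Gars, Iars, Tars and Yars. Of 14 mitochondrial synthetases with a window, 0 held one. Matches are descriptions of letters and not of bound sites. The stretch from 120 bases before to 30 after the start is printed for these 5 genes, read along the gene's strand, with each match in capitals.
Aars, chr8:111033722-111033871, plus strand: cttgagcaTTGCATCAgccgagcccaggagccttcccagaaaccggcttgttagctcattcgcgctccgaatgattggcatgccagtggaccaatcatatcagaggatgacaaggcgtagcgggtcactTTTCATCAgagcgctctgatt
Gars, chr6:55037881-55038030, plus strand: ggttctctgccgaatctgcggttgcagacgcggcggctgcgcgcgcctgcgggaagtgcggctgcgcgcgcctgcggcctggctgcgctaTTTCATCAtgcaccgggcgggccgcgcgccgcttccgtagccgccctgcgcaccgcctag
Iars, chr13:49682010-49682159, plus strand: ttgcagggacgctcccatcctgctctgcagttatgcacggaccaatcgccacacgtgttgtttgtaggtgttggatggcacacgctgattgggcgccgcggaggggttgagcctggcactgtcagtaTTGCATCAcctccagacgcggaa
Tars, chr15:11399629-11399778, minus strand: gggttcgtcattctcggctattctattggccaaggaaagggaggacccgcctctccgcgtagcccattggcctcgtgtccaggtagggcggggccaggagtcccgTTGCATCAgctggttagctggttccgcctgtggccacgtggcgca
Yars, chr4:129189783-129189932, plus strand: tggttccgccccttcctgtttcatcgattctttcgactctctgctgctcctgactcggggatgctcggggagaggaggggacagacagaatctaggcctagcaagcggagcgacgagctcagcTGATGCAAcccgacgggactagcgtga
In Aars, Gars, Iars and Tars the core reads on the strand opposite to the gene, and in Yars along it. The match begins 112 bases before the start and again at base 10 of the transcript in Aars, 30 bases before it in Gars and 15 bases before it in Tars, at base 8 of the transcript in Iars and at base 4 in Yars. The letters TTGCATCA are shared by Aars, Iars and Tars. The match in Yars, TGATGCAA, is the same stretch read on the other strand.

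The differences of cytosolic genes with and without a match were set side by side, and a link between match and difference was not tested. The 5 genes with a match had a median of 0.59, between 0.14 for Yars and 0.84 for Tars. The 7 with a window, a value and no match had a median of 0.44, between -0.36 for Sars and 1.04 for Eprs, so the ranges overlap. The E-box CACGTG, a site for Myc and related factors that reads the same on both strands, was in the windows of 4 of 13 cytosolic genes (Aars, Farsb, Iars and Tars) and of 1 of 14 mitochondrial genes (Ears2), against 8.91% of protein-coding genes. The matches of the 2 motifs do not overlap in these windows.

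The mitochondrial enzymes at least 1.5-fold higher were Tars2, Vars2 and Mars2. Tars2, the threonyl enzyme, gave 268 in TIF1γ Δ/Δ cells and 174 in wild type cells (log2 0.65, 1.56-fold), with both probe sets above 0. Vars2, the valyl enzyme, gave 60.9 and 41.2 (log2 0.59), and its other probe set stood at 0.79. Mars2, the methionyl enzyme, gave 25.7 in TIF1γ Δ/Δ cells and 9.09 in wild type cells, where it lay under the floor, so it was at least 1.81-fold higher. The isoleucyl enzyme Iars2 lay just under 1.5-fold, with 302 and 209.8 (log2 0.55) and both probe sets above 0.

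The lowest mitochondrial values were those of Hars2 and Pars2. Hars2, the histidyl enzyme, gave 71.1 in TIF1γ Δ/Δ cells and 108 in wild type cells (log2 -0.58), just short of 1.5-fold. Its other probe set, 1419158_a_at, went the other way, with 82.9 and 66.9 (log2 0.33), so no direction holds for the gene. Pars2, the prolyl enzyme, gave 62.4 and 93.5 (log2 -0.56) on its single probe set. Wars2, the tryptophanyl enzyme, also had probe sets in disagreement, with 90.5 in TIF1γ Δ/Δ cells and 72.5 in wild type cells (log2 0.35) for 1429279_at, but 23.8 and 52.3 (log2 -1.11) for 1435273_at. Fars2, the phenylalanyl enzyme, gave 213 and 211 (log2 0.036) for the probe set used and a difference of -0.29 for the other.

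The remaining mitochondrial enzymes lay within 0.4 of 0. Those above 0 were Lars2 (0.37), Sars2 (0.31), Aars2 (0.17) and Rars2 (0.059), and those below were Nars2 (-0.22), Cars2 (-0.19), Yars2 (-0.15) and Ears2 (-0.014). The 23 mitochondrial probe sets measured on both arrays gave 13 positive and 10 negative differences. The difference of Ears2, the glutamyl enzyme, comes from a signal of 30.1 in TIF1γ Δ/Δ cells and 30.9 in wild type cells, and its other 3 probe sets were not measured on both arrays.

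Setting the enzymes for the same amino acid side by side gave the same ordering as the medians. In 13 of 16 pairs the cytosolic enzyme had the higher difference, and the median separation was 0.30. It was widest for proline, where Eprs exceeded Pars2 by 1.60, and for glutamate, where Eprs exceeded Ears2 by 1.06. Eprs enters both of these pairs, and the phenylalanine pair uses Farsa. The pairs in which the mitochondrial enzyme stood higher were serine (log2 -0.66, cytosolic minus mitochondrial), valine (-0.11) and methionine (-0.025, with a bound for Mars2). For isoleucine and threonine both enzymes were well above 0, at 0.80 and 0.55 and at 0.84 and 0.65.

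**Figure D4:**
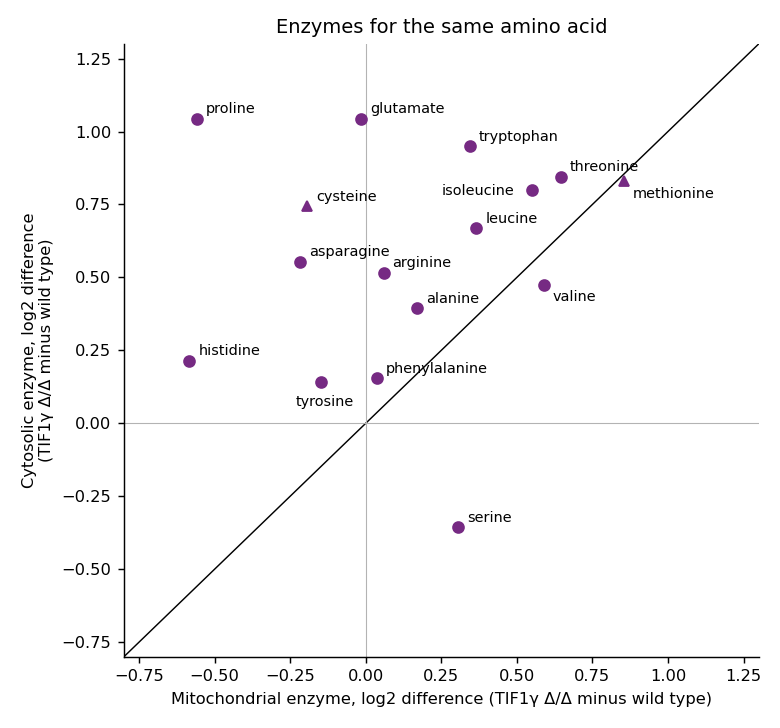
Log2 difference, TIF1γ Δ/Δ minus wild type, of the cytosolic enzyme (vertical axis) against the mitochondrial enzyme (horizontal axis) for 16 amino acids. Circles are pairs measured on both arrays, triangles pairs with a lower bound (cysteine, methionine), and the diagonal marks equal differences; 13 points lie above it and serine lies farthest below.

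The listed targets of ATF4 went both ways. Of 24 measured genes known as ATF4 targets, 13 were above 0, which is 54.2% beside 51.3% of all genes, and the median was 0.12. At 1.5-fold, 6 were higher and 6 lower, 25% each way, beside 13.8% and 15.7% of all genes. The transporter for large neutral amino acids Slc7a5 gave 209.9 in TIF1γ Δ/Δ cells and 70.7 in wild type cells (log2 1.59), and the cationic amino acid transporter Slc7a1 gave 1003 and 479 (log2 1.09). In the other direction, asparagine synthetase Asns gave 298 and 654 (log2 -1.11), the pseudokinase Trib3 39.4 and 92.8 (log2 -1.21) and the stress factor Ddit3 72.1 and 155 (log2 -1.09). Slc7a5 rests on 1 measured probe set, whereas Slc7a1, Asns, Trib3 and Ddit3 each have 2, which agreed in direction. Of 23 listed targets with a window, measured or not, 8 held the TGATGNAA core. Among the 6 of these with a value, Asns, Trib3, Nupr1 (-0.59) and Chac1 (-0.17) were below 0, and Atf3 (0.72) and Vldlr (0.29) above 0. They are named because they hold the core, outside the rule for named genes.

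The eIF2 kinase pathway, upstream of ATF4, had a median of 0.16 over 14 genes. Gcn1, the ribosome-bound activator of GCN2, gave 56.3 in TIF1γ Δ/Δ cells and 21.5 in wild type cells (log2 1.41). It rests on 1 measured probe set, with a wild type signal near the floor of 14.4. Impact, an inhibitor of GCN2 activation, gave 183 and 379.9 (log2 -1.03, 2 of 2 probe sets). GCN2 itself (Eif2ak4) and Atf4, both named outside the rule for named genes, had differences of -0.021 and -0.31. ATF4 is controlled mainly at translation, which these arrays do not measure.

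Genes that make, export or use tRNA were spread around 0. RNA polymerase III and tRNA processing genes had a median of 0.12 over 32 genes, with 4 at least 1.5-fold higher (12.5%, beside 13.8% of all genes) and 1 lower (3.1%, beside 15.7%). Polr3e, a polymerase III subunit, gave 258 in TIF1γ Δ/Δ cells and 135 in wild type cells (log2 0.96), with 1 of 2 probe sets higher. Xpot, which exports tRNA from the nucleus, gave 1043 and 603 (log2 0.81, 3 of 3 probe sets). Cytosolic elongation factors had a median of 0.022 over 6 genes, with the elongation factor 2 kinase Eef2k at 0.78 (3 of 3 probe sets) and its substrate Eef2 at 0.53. The elongation factor median depends on the settings and ran from -0.037 to 0.53. It was 0.53 without shared probe sets, 0.18 with loess scaling and 0.16 with quantile scaling.

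Genes for proteins of the mitochondrial ribosome, which the mitochondrial synthetases supply with charged tRNA, were mostly lower. Of 56 mitochondrial ribosomal protein genes, 49 were below 0, 11 at least 1.5-fold lower and 2 at least 1.5-fold higher, at a median of -0.30. The 11 are 19.6% of them, beside 15.7% of all genes, and the 7 above 0 are 12.5%, beside 51.3% of all genes. Most of them had a signal of 100 or more on both arrays. Among all genes in that range, 7.09% were at least 1.5-fold lower and 58.4% above 0. Mrpl33 alone was at least 2-fold lower, with 603 in TIF1γ Δ/Δ cells and 1855 in wild type cells (log2 -1.60). Mitochondrial translation factors and tRNA modifiers had a median of 0.23 over 17 genes, with the pseudouridine synthase Pus1 at 0.95 and the tRNA-modifying GTPase Gtpbp3 at -0.85.

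**Figure D5:**
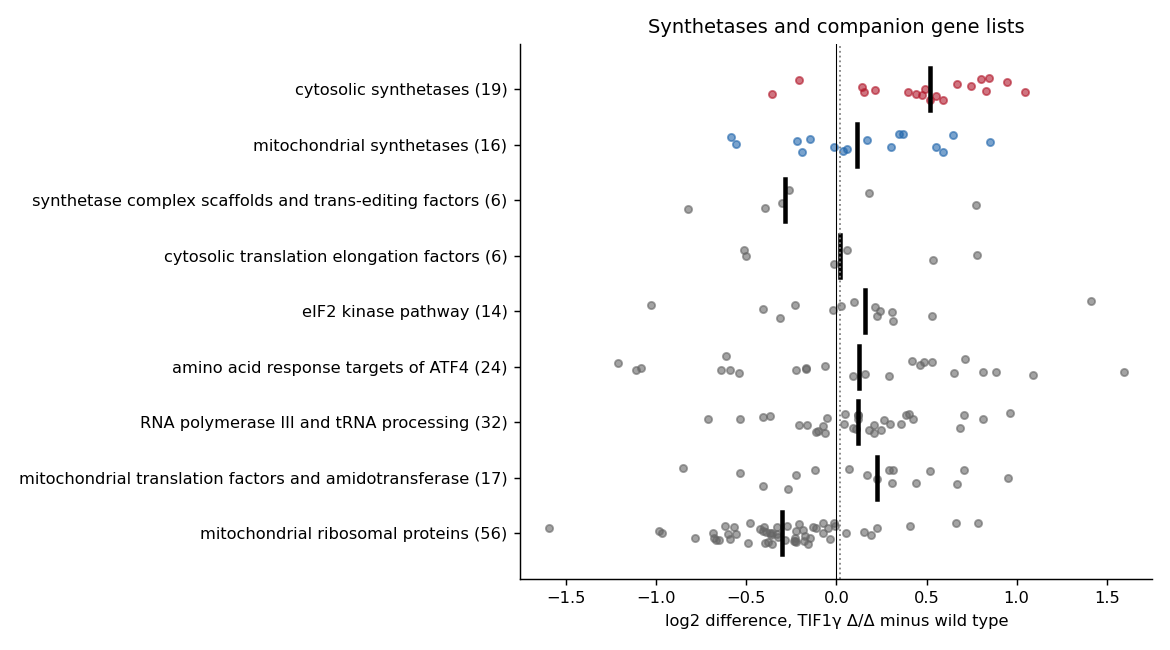
Log2 difference, TIF1γ Δ/Δ minus wild type (horizontal axis), of each gene in the synthetase lists and 7 companion lists, with the number of genes with a value in parentheses. Black bars are list medians and the dotted line is the median of all genes (0.017); the cytosolic synthetases have the highest median, 0.52, and the mitochondrial ribosomal proteins the lowest, -0.30.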

How the data were processed

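Affymetrix arrays of KLS cells were compared, 1 TIF1γ Δ/Δ and 1 wild type, grouped by the genotype label. The authors deposited a linear MAS5 intensity for each probe set, per the submitters' processing notes. The sources used here give neither the MAS5 version nor any filter, and detection calls were not used. The mean after trimming 2% at each end was 100 on each array, so the intensities had already been scaled. MAS5 subtracts mismatch signals, which makes low values noisy.

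Of 45101 probe sets, 64 controls were left out. The platform annotation gave 34945 a single gene, 932 several and 9160 none. Symbols were updated by Entrez identifier to mouse RefSeq (GRCm38.p6), which held 34741. A gene with a value under the floor on 1 array got the floor there and is printed as at least N-fold, and 285 genes whose bound pointed the wrong way were left out, which leaves 11439. The median subtracted was -0.024.

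With 1 array a group no test was run, and the array number limits the precision. The members and lists were chosen with earlier results of these data known. Values are printed for synthetases at least 1.5-fold apart or with probe sets in disagreement, for up to 6 members of a companion list at least 2-fold apart, or else for up to 2 with the largest difference. Other synthetases are given more briefly, and genes named beyond this are marked, markers aside.

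The alternatives covered scaling, the floor, the probe set rule, an offset of 16 and the fold counted. Code was tested on simulated data. Python 3.11.15 was used with matplotlib 3.10.9 for plots, statsmodels 0.14.6 for loess, and numpy 2.4.6 and pandas 2.3.3.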

Additional observations from a re-analysis of the deposited data

Results flagged for a closer look

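The probe set 1435544_at, annotated to both Aars and Exosc6 and therefore used in no comparison, gave 336 in TIF1γ Δ/Δ cells and 195 in wild type cells, a log2 difference of 0.81. The probe sets of Aars alone stood at 0.39 and 0.72.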

How the results depend on the processing

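The cytosolic median was positive under all 10 alternatives, from 0.44 to 0.67, the highest without probe sets shared between transcripts (0.67). In that setting Qars and Sars, the cytosolic enzymes below 0, had no value. The mitochondrial median was 0.24 with quantile scaling and -0.011 at the higher floor (65th percentile), where fewer genes are measured. The cytosolic median minus the mitochondrial median was 0.25 with quantile and 0.30 with loess scaling. Synthetase genes at least 2-fold higher numbered 1 as reported, 2 with quantile scaling, 3 at the lower floor (40th percentile), 0 at the higher, 4 with no floor, 3 without shared probe sets and 0 with an offset of 16. At 1.5-fold they numbered 11 and at 3-fold 0. The cytosolic genes at least 1.5-fold higher ran from 6 to 10. The mitochondrial genes at least 1.5-fold higher numbered 1 at the higher floor and 1 with the offset. Those at least 1.5-fold lower, 0 as reported, numbered 1 without scaling, 1 with quantile, 2 with loess and 2 at the higher floor. Mitochondrial genes above 0 numbered 6 with that floor. Where no construction of the alternative shows it, the cause was not tested. The cytosolic enzyme stood higher in 10 of 11 amino acid pairs at the higher floor, in 10 of 12 without shared probe sets and in 12 to 14 of 16 under the others. Of 305 recomputed gene values, 8 moved by more than the probe set SD. The alternative restricted to genes measured on both arrays was chosen after seeing the data. All genes at least 2-fold higher numbered 297 as reported and 2025 with no floor, and all at least 2-fold lower 705 and 2784. No paired analysis was possible because each group holds 1 array.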
